A study of Mus musculus with 6 samples.

Results

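The genes described here are 10 marker genes of meningeal fibroblasts: Dcn, Aldh1a2, Slc6a13, Cemip, Ptgds, Foxc1, Cdh11, Lum, Fbln2 and Postn. They were chosen by name, and each matched 1 row among the 22050 genes of the deposited hippocampal expression table. Collagens and Igf2, which these cells also make, are not part of the group. The table holds messenger RNA sequencing of whole hippocampus from young mice, with 3 control libraries and 3 libraries of mice given repeated injections of lidocaine, a local anaesthetic acting on sodium channels. The comparison asks what differs in the hippocampus after lidocaine in young animals; the old mice of the design were not analysed here. The age is that of the sample titles, since the columns of the table, named by an initial and a replicate number, carry no age. The labels give no strain, sex, dose, interval or control treatment, and do not say whether the meninges were peeled off or whether a library came from 1 animal. P-values therefore measure the spread between these libraries, which may be technical. Library totals ranged from 13887604 to 16984995 estimated counts. All 22050 rows carry rat Ensembl identifiers and 19832 a Rat Genome Database symbol, so the annotation is of rat genes although the labels say mouse. The species of the reads and of the genome they were mapped to could not be settled. A gene's counts may therefore depend on how alike the rat and mouse genes are.

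Meningeal fibroblasts build the pia, arachnoid and dura, the membranes that wrap the brain, and related fibroblasts line larger vessels and the folds of pia that reach into the hippocampal fissure. They secrete collagen and proteoglycan matrix, make retinoic acid, carry transporters for GABA and organic anions, and require the transcription factor Foxc1 during development. None of the 10 genes is restricted to these cells. Ptgds is also made by oligodendrocytes and choroid plexus, and Cdh11 by other cells of the brain. In bulk tissue, a change in the number of fibroblasts and a change in RNA per fibroblast cannot be told apart.

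None of the 10 genes was called different between lidocaine and control. Aldh1a2 and Cemip were the members whose 3 lidocaine libraries all lay above the 3 controls, and their promoter windows are shown to identify the genes in the mouse genome. The sequences are RefSeq's for build GRCm38.p6, 300 bases around the annotated start, written 5′ to 3′ on the gene's strand. Aldh1a2 lies at chr9:71215539-71215838 on the plus strand and Cemip at chr7:84086456-84086755 on the minus strand. Capitals mark matches to TATAAA, the TATA box core, and to CCAAT, the CCAAT box, both searched on both strands with no overlap between them.
Aldh1a2: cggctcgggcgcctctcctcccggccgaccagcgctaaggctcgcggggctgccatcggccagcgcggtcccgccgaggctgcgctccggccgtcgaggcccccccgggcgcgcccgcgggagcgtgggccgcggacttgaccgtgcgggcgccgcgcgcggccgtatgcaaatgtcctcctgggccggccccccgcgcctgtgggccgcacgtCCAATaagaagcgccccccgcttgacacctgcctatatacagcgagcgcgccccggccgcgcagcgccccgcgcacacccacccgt
Cemip: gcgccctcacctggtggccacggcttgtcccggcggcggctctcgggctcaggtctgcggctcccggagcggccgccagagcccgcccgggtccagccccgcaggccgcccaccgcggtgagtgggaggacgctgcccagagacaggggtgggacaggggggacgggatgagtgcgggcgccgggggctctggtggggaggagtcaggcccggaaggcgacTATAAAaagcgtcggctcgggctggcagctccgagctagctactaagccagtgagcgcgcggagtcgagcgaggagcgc
The Aldh1a2 window held 1 CCAAT match, at position -36 from the start, and no TATAAA. The Cemip window held TATAAA at position -29 and no CCAAT. Of all 32851 promoter windows, 13.6% held TATAAA and 37.4% held CCAAT. Both windows were rich in G and C, at 78.0% and 73.7%, against a median of 52.7% over all windows. The forkhead core TGTTTAC, searched on both strands because Foxc1 is a member, was found in 0 of the 10 windows that 7 members have in the table and in 3.65% of all windows. A match or its absence is a description of these letters only.

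The members spanned a wide range of levels. The FPKM scale corrects fragments for transcript length and library depth, so that levels of different genes can be set side by side. A gene's counts may depend on how alike the rat and mouse genes are, so the order is that of the listed values only. Ptgds was highest with a mean of 152.9 FPKM over the 6 libraries. Cdh11 followed at 17.7, Dcn at 7.88, Cemip at 2.81, Lum at 1.98, Slc6a13 at 1.06, Aldh1a2 at 0.922, Foxc1 at 0.653, Postn at 0.202 and Fbln2 at 0.133 FPKM. The steps from Ptgds to Cdh11, from Cdh11 to Dcn, from Dcn to Cemip and from Foxc1 to Postn were larger than the spread, with no overlap of the FPKM ranges over 6 libraries. The ranges of Cemip and Lum overlapped, and Cemip was the higher gene in 4 of 6 libraries. The ranges of Slc6a13 and Aldh1a2, of Aldh1a2 and Foxc1, and of Postn and Fbln2 also overlapped, each pair keeping its order in 5 of 6 libraries. Lum lay above Slc6a13 in 6 of 6 libraries although their ranges overlapped across libraries.

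**Figure D1:**
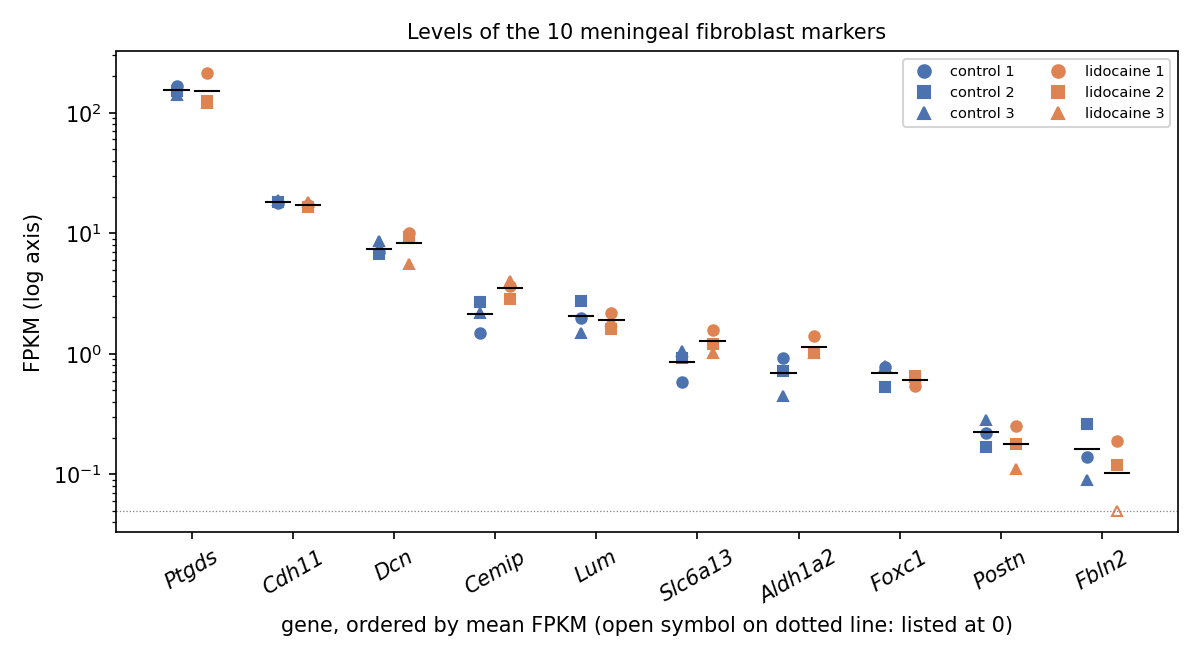
FPKM of the 10 genes (y axis, log scale) in each library, with controls in blue, lidocaine in orange, symbols for the replicate number and black bars for group means. Levels run from 152.9 FPKM for Ptgds to 0.133 for Fbln2 (means of 6 libraries), and the open triangle marks Fbln2 listed at 0 in lidocaine 3.

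Across all 13408 genes tested with edgeR's quasi-likelihood test, 0.0149% were called at a Benjamini-Hochberg-adjusted p under 0.05, all lower with lidocaine, and 0 of the 10 members were. At an unadjusted p under 0.05 there were 2 members, Cemip and Aldh1a2, beside 4.36% of all tested genes. Of the members, 4 had a positive and 6 a negative log2 fold change, where 49.9% of all tested genes were positive. The median log2 fold change of the members was -0.05, against 0.00 (-0.0003) for all tested genes. The groups did not overlap in 2 of 10 members, beside 9.98% of all tested genes, and in both members lidocaine was the higher group, as in 4.89% of all tested genes. DESeq2, an alternative test, called 0.172% of the tested genes and 0 members. All 10 members passed the filter on low counts. Leaving out 1 library at a time gave 0 called members each time, and the number at an unadjusted p under 0.05 was 2 without control 1, 0 without control 3 and 1 without any other library.

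Foxc1, the forkhead factor that meningeal fibroblasts need to form, is the transcription factor of the group. Control libraries 1 to 3 held 75, 57 and 75 counts of it, and lidocaine libraries 1 to 3 held 61, 70 and 69. The lidocaine libraries all lay within or just beside the control range, and the lowest value after scaling to library size was in lidocaine 1. Scaled to library size with TMM factors, Foxc1 averaged 4.71 ± 0.97 CPM in the control group against 4.09 ± 0.44 CPM in the lidocaine group (SD, n = 3 each). On the log2 scale the difference was -0.20, its 95% interval running from -0.72 to 0.31, and it was -0.36 without control 2 and -0.10 without control 3. Foxc2, its paralogue and another meningeal factor, stayed under the count filter, at 0.216 to 0.345 CPM in controls and 0.375 to 0.883 CPM with lidocaine, and was not tested.

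Aldh1a2 encodes the retinaldehyde dehydrogenase that makes retinoic acid in the meninges. The controls held 51, 44 and 24 counts of Aldh1a2 and the lidocaine libraries 90, 62 and 62. Each lidocaine library lay above each control after scaling, with control 3 lowest and lidocaine 1 highest. Mean levels were 2.67 ± 0.91 CPM for control against 4.35 ± 0.82 CPM for lidocaine (SD, n = 3 each). The log2 fold change of 0.70 ± 0.30 (SE) had a 95% interval from 0.0040 to 1.39 and was not called (edgeR, Benjamini-Hochberg-adjusted p = 0.995; unadjusted p = 0.049). It was 0.47 without control 3 and 0.95 without control 1.

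Other genes of the retinoic acid pathway were read from a list of 17 entries, of which 16 matched a row and 14 were tested. Of these, 8 had a positive and 6 a negative log2 fold change, with a median of 0.02, and edgeR called 0 of them. The gene of smallest p was Cyp26b1, which breaks down retinoic acid. Cyp26b1 stood at 30.5, 42.4 and 30.5 CPM in the controls and at 27.3, 23.6 and 25.1 CPM with lidocaine, so every lidocaine library lay below every control. Its log2 fold change was -0.44 ± 0.15 (edgeR, Benjamini-Hochberg-adjusted p = 0.995; unadjusted p = 0.0168). Aldh1a1, another retinaldehyde dehydrogenase, varied from 1.57 to 17.4 CPM within the lidocaine group alone, and Rdh10, which supplies retinaldehyde, had a log2 fold change of 0.07.

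Slc6a13 encodes GAT2, a transporter of GABA and taurine found in the leptomeninges. Its counts were 31, 55 and 54 for the controls, against 96, 69 and 59 for lidocaine. Lidocaine 1 and 2 lay above all controls, whereas lidocaine 3, at 3.71 CPM, lay just under control 3 at 3.86 CPM. For Slc6a13 the log2 fold change was 0.53 ± 0.28 (SE), with a 95% interval from -0.13 to 1.18 (edgeR, Benjamini-Hochberg-adjusted p = 0.995). It was 0.31 without control 1 and 0.34 without lidocaine 1. Of 5 related transporters, 4 were tested and 0 called. Slc6a8, the creatine transporter, had a log2 fold change of -0.20 ± 0.11 and the astrocytic Slc6a11 had 0.10 ± 0.09. Slc6a12, a transporter of betaine and GABA, was under the filter at 0.125 to 0.552 CPM.

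Ptgds encodes the lipocalin-type synthase of prostaglandin D2, a secreted enzyme abundant in cerebrospinal fluid. The controls held 3228, 3215 and 2613 counts of Ptgds and the lidocaine libraries 4727, 2643 and 2584. Lidocaine 1 was the highest of all 6 libraries, and lidocaine 2 and 3 were the lowest pair, so that the control group lay between them. The means were 204.2 ± 18.3 CPM for control against 201.5 ± 66.3 CPM for lidocaine (SD, n = 3 each), and the log2 fold change of -0.02 had a 95% interval from -0.59 to 0.55. Without lidocaine 1 the log2 fold change was -0.32, without lidocaine 3 it was 0.12, without lidocaine 2 it was 0.11 and without control 1 it was 0.05. Its biological coefficient of variation, the spread between libraries beyond counting error, was 19.9%, where the trend for genes of that level was 8.91%.

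Oligodendrocytes also make Ptgds, and their markers differed between libraries. All 10 of 10 tested oligodendrocyte markers had negative log2 fold changes, with a median of -0.35, 0 called by edgeR and 5 at an unadjusted p under 0.05. Their summed level ranged from 11634 to 13440 CPM in controls and from 8427 to 11515 CPM with lidocaine. Lidocaine 1, the library with the highest Ptgds, had the lowest oligodendrocyte sum. Choroid plexus markers, another source of Ptgds, summed to 42.3 to 59.1 CPM in controls and 33.3 to 56.6 CPM with lidocaine, and lidocaine 1 was again the lowest. Most of this sum was Enpp2, which oligodendrocytes also express, at 27.8 to 46.4 CPM over the 6 libraries. Of these 12 choroid markers 6 passed the filter, none was at 0 in all libraries, and the defining carrier gene Ttr ranged from 1.35 CPM in lidocaine 1 to 8.78 CPM in control 3. The part of these cells in the Ptgds values was not tested. Of the other prostaglandin D genes, 6 were tested and 0 called, and Ptgs2, cyclooxygenase 2, had a log2 fold change of -0.25 ± 0.13. Hpgd, which inactivates prostaglandins, had -0.27 ± 0.21, and the haematopoietic synthase Hpgds was under the filter at 0.312 to 0.690 CPM.

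Cemip encodes a secreted protein that binds hyaluronan and starts its breakdown. Its estimated counts were fractional, at 256.8, 507 and 363.5 in the controls and 716.6, 531.9 and 756.2 with lidocaine, so its reads may be divided with other genes. Each lidocaine library lay above each control, although lidocaine 2 at 33.0 CPM exceeded control 2 at 32.0 CPM by little. Cemip averaged 25.2 ± 7.14 CPM for control against 40.9 ± 7.31 CPM for lidocaine (SD, n = 3 each). The difference of 0.70 ± 0.23 (SE) in log2, with a 95% interval from 0.15 to 1.24, was not called (edgeR, Benjamini-Hochberg-adjusted p = 0.995; unadjusted p = 0.0201). The adjusted p was 0.446 in DESeq2. Leaving out 1 library gave 0.50 without control 1 as the lowest and 0.91 without control 2 as the highest value.

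Of 13 other genes of hyaluronan metabolism, 10 were tested, 7 with a positive and 3 with a negative log2 fold change and a median of 0.18, and edgeR called 0. Cemip2, the membrane-bound relative of Cemip, had a log2 fold change of 0.32, with 12.6 to 21.7 CPM in controls and 15.9 to 30.4 CPM with lidocaine. The hyaluronidases Hyal1 and Hyal2 had 0.40 and 0.22. Hapln4, a link protein of the nets around neurons, had 0.26 ± 0.11 with groups that did not overlap (edgeR, Benjamini-Hochberg-adjusted p = 0.995; unadjusted p = 0.0485). Hapln2, a link protein at nodes of Ranvier, had -0.58 ± 0.28. The hyaluronan synthases Has2 and Has3 had 0.14 and -0.06, and Has1 was under the filter.

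Dcn and Lum encode decorin and lumican, small leucine-rich proteoglycans that bind collagen fibrils. The controls held 318, 338 and 383 counts of Dcn and the lidocaine libraries 532, 468 and 279. Lidocaine 1 and 2 lay above all controls and lidocaine 3 lay below all of them. Dcn had a log2 fold change of 0.14 ± 0.22 (SE), with a 95% interval from -0.38 to 0.67, which was -0.011 without lidocaine 1 and 0.36 without lidocaine 3. Counts of Lum were 98, 150 and 71 for the controls, against 126, 87 and 102 for lidocaine, so the control group was the wider and enclosed the lidocaine group. Its log2 fold change was -0.15 ± 0.25, and 0.12 without control 2. Dcn and Lum thus had different libraries at their extremes, lidocaine 1 and lidocaine 3 for Dcn and control 2 and control 3 for Lum.

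Among the other small leucine-rich proteoglycans, 11 of 12 entries matched a row and 6 were tested, 4 with a positive and 2 with a negative log2 fold change, with 0 called by edgeR. The most abundant was Prelp, at 39.6 to 53.1 CPM in controls and 39.4 to 57.5 CPM with lidocaine, a log2 fold change of 0.05. Bgn, biglycan, had -0.05 and Fmod, fibromodulin, 0.17 ± 0.25. Aspn, asporin, had the smallest p, with 0.82 to 1.45 CPM in controls and 0 to 0.588 CPM with lidocaine (edgeR, Benjamini-Hochberg-adjusted p = 0.995; unadjusted p = 0.035). Lidocaine 2 was listed at 0 for Aspn.

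Fbln2 and Postn encode fibulin 2, which bridges elastic and basement membrane matrix, and periostin, a matricellular protein, and both were close to the limit of detection. Counts of Postn were 17, 14 and 21 for the controls, against 22, 15 and 9 for lidocaine, and the groups overlapped. Its log2 fold change was -0.34, with a 95% interval from -1.29 to 0.61, and it was -0.65 without lidocaine 1 and -0.09 without lidocaine 3. Fbln2 had fractional estimated counts of 15.1, 29.6 and 9.17 in the controls and 22.6, 14.3 and 0 with lidocaine. An exact 0 beside fractional counts can be a failed estimate, so the 0 in lidocaine 3 was not read as absence. The log2 fold change of Fbln2 was -0.68 with a 95% interval from -2.99 to 1.63, and it was -0.10 without lidocaine 3 and -1.44 without lidocaine 1. It was -1.71 in limma-voom and -1.03 with the replicate block. The biological coefficient of variation of Fbln2 was 82.7%, where the trend at its level was 42.5%.

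Of 20 other genes for fibulins, fibrillins and matricellular proteins, all were tested, 12 with a positive and 8 with a negative log2 fold change and a median of 0.06, and 0 were called. Fbn1, which encodes the main microfibril protein fibrillin 1, stood at 12.7, 11.6 and 19.8 CPM in the controls and at 36.9, 15.3 and 33.9 CPM with lidocaine. Lidocaine 1 and 3 were above all controls and lidocaine 2 was not. Its log2 fold change was 0.97 ± 0.38 (edgeR, Benjamini-Hochberg-adjusted p = 0.995; unadjusted p = 0.0439). Fbn2 had -0.54 ± 0.30.

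Cdh11, cadherin 11, an adhesion molecule of mesenchymal cells that other brain cells also carry, had the smallest spread between libraries of the 10 members. The controls held 2244, 2513 and 2296 counts of Cdh11 and the lidocaine libraries 2500, 2293 and 2565. The groups overlapped, with lidocaine 2 lowest and control 3 highest after scaling, at 142.4 and 163.9 CPM. The log2 fold change was -0.08 ± 0.06 (SE) with a 95% interval from -0.23 to 0.06, the narrowest of the 10 members, and it was -0.14 without lidocaine 3 and -0.05 without lidocaine 2. Its biological coefficient of variation was 7.04%, under the trend of 9.14% at its level. The 11 other type II cadherins were all tested, 2 with a positive and 9 with a negative log2 fold change, and 0 were called. Cdh9 had 0.19 ± 0.08 and Cdh22 had -0.21 ± 0.11.

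**Figure D2:**
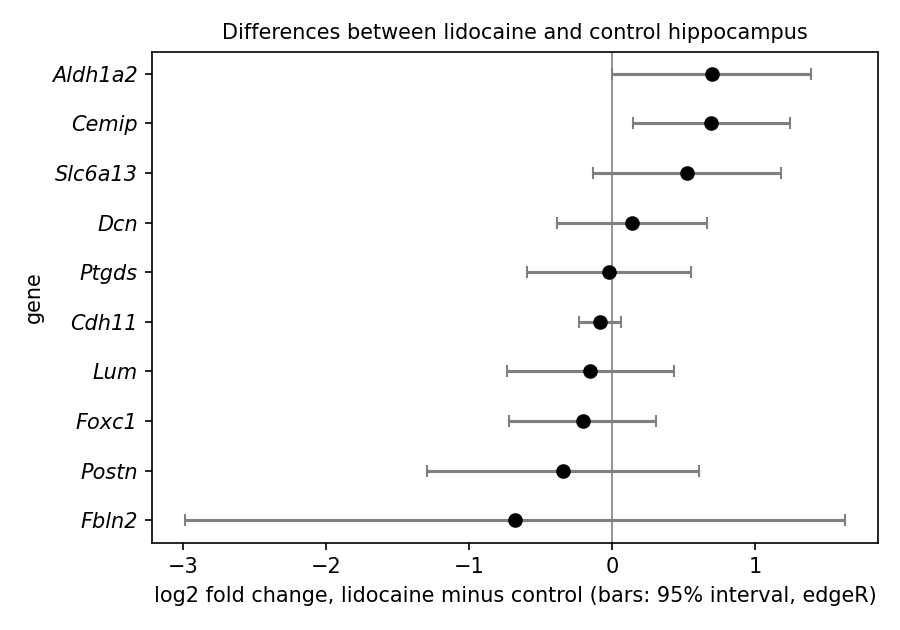
Log2 fold change of lidocaine against control (x axis) for each gene (y axis), with 95% intervals from edgeR's quasi-likelihood fit of 6 libraries. Only the intervals of Aldh1a2 (0.0040 to 1.39) and Cemip (0.15 to 1.24) lie above 0, before any adjustment for the number of genes, and that of Fbln2 is the widest.

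The members did not vary as 1 group across libraries. Of the 10, 4 were highest in lidocaine 1 (Dcn, Aldh1a2, Slc6a13 and Ptgds), 3 in control 3 (Foxc1, Cdh11 and Postn), 2 in control 2 (Lum and Fbln2) and 1 in lidocaine 3 (Cemip). Over all tested genes, 16.2% were highest in lidocaine 1. The lowest library was lidocaine 3 for 4 members, Dcn, Ptgds, Fbln2 and Postn, while Cemip was highest there. Relative to the control mean, 8 of the 10 were higher in lidocaine 1, 4 in lidocaine 2 and 4 in lidocaine 3. The mean deviation over the members, in log2 CPM, came to -0.04, 0.10 and -0.06 for controls 1 to 3, against 0.36, 0.03 and -0.33 for lidocaine 1 to 3. Without Fbln2, whose 0 in lidocaine 3 weighs on this mean, the lidocaine values were 0.36, 0.06 and -0.0026.

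**Figure D3:**
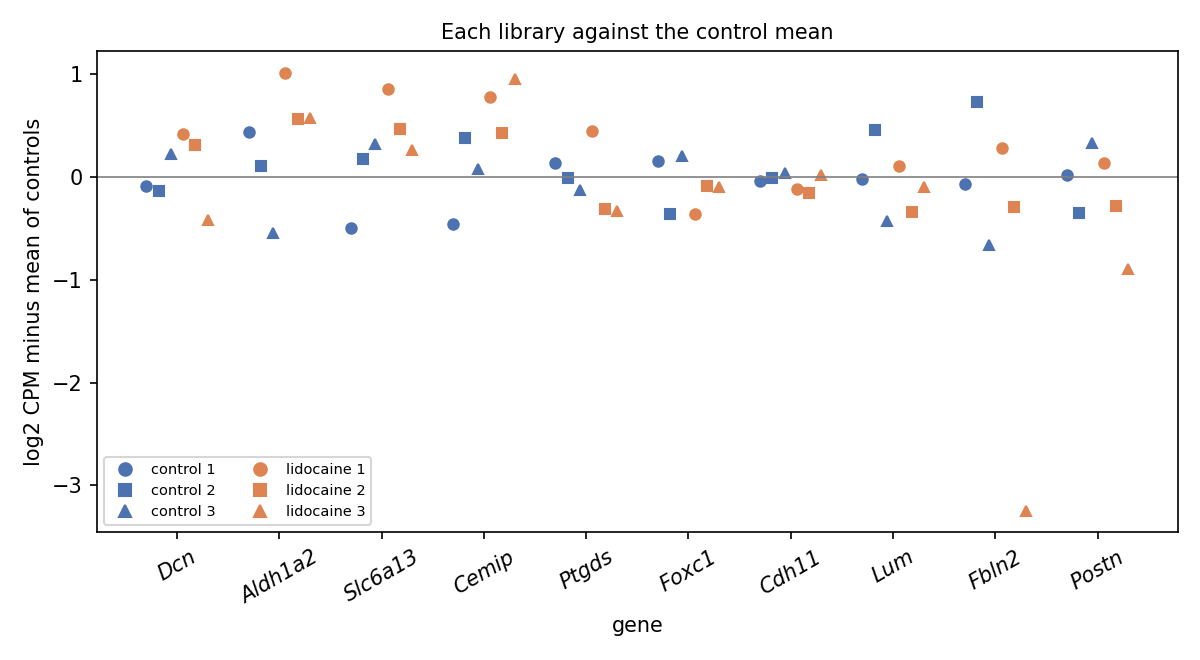
Log2 CPM of each gene minus its mean in the controls (y axis), 1 symbol per library, with controls in blue and lidocaine in orange. Lidocaine 1 (orange circles) lies above the control mean for 8 of 10 genes, and lidocaine 3 (orange triangles) is the lowest library for Dcn, Ptgds, Fbln2 and Postn.

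A second list of 28 other meningeal fibroblast markers was compared with the members. Of these, 26 matched 1 row and 19 were tested, 13 with a positive and 6 with a negative log2 fold change, a median of 0.05 and 0 called by edgeR. Their mean deviation was 0.27 in lidocaine 1, 0.09 in lidocaine 2 and -0.14 in lidocaine 3, so lidocaine 1 was the highest library for both lists. Their summed level was 263.2 to 290.6 CPM in controls and 290.1 to 297.5 CPM with lidocaine, of which Pdgfra, a receptor that oligodendrocyte precursors also carry, made up more than any other gene. Pdgfra stood at 153.4, 160.3 and 157.1 CPM in the controls and at 165.6, 170.5 and 170.9 CPM with lidocaine, a log2 fold change of 0.11 ± 0.05 with groups that did not overlap. Slc22a6, an organic anion transporter of the leptomeninges, had 0.45 ± 0.38 and Mgp, matrix Gla protein, 0.34. Zic1, a transcription factor of the meninges and cerebellum, had -0.23. The list's result does not cover its untested genes: Slc13a4 was listed at 0 in all 6 libraries, which was not read as absence, and Foxd1, Slc22a2, Wnt6, Mfap5 and Dkk2 were under the filter.

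Markers of other cells that a hippocampal dissection can hold were read beside the members. For mural cell markers the median log2 fold change was -0.04 over 9 tested genes, 3 positive and 6 negative. Their genes of smallest p were Cspg4, which pericytes and oligodendrocyte precursors carry, at 0.25 ± 0.08 and the smooth muscle actin Acta2 at 0.20 ± 0.19, both positive. Endothelial markers had a median of -0.03 over 8 genes, 3 positive and 5 negative, with the glucose transporter Slc2a1 at 0.25 ± 0.09 and the angiopoietin receptor Tek at -0.19 ± 0.11. All 5 tested border macrophage markers had positive log2 fold changes with a median of 0.19, and their summed level was 19.4 to 27.9 CPM in controls and 19.9 to 27.0 CPM with lidocaine. Ependymal markers had a median of -0.04 over 6 genes, with Rarres2 at 0.40 ± 0.21 and Rsph1 at -0.65 ± 0.37. Astrocyte markers had a median of 0.0023 over 9 genes, and S100b, a calcium-binding protein of astrocytes, had -0.23 ± 0.09 with every lidocaine library below every control. Markers of hippocampal excitatory neurons had a median of 0.10 over 6 genes, and the neuronal splicing factor Rbfox3 had 0.40 ± 0.15 with every lidocaine library above every control. Blood cell genes had a median of -0.14 over 5 genes. Blood cell genes summed to 860.8, 627.3 and 317.5 CPM for controls 1 to 3, against 562.7, 436.1 and 686 CPM for lidocaine 1 to 3. Across these 7 lists edgeR called 0 genes. The part of these cells in the members' values was not tested.

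**Figure D4:**
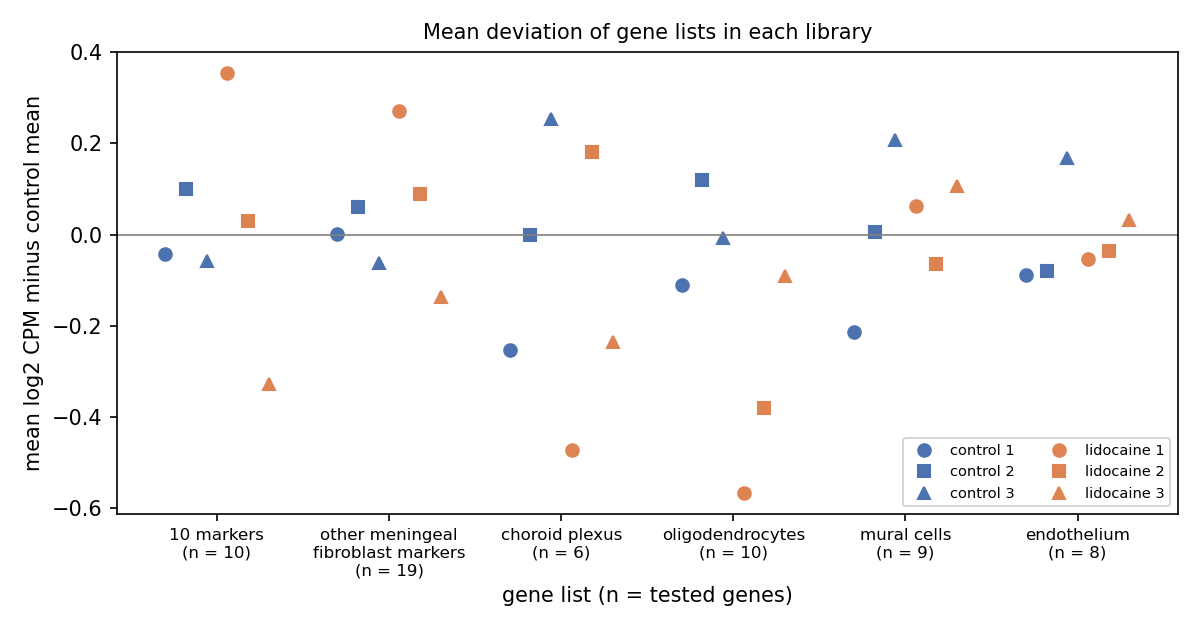
Mean over the tested genes of each list of log2 CPM minus the control mean (y axis), 1 symbol per library, for the 10 members, 28 further meningeal markers (19 tested) and 4 lists of other cells. Lidocaine 1 (orange circle) is the highest library for both meningeal lists, at 0.36 and 0.27. It is the lowest for choroid plexus and oligodendrocyte markers, at -0.47 and -0.57. Type II cadherins, not plotted, were also highest in lidocaine 1, at 0.42. Cdh12, listed at 0 in controls 1 and 2 and at 6.79 CPM in lidocaine 1, weighs on this mean. Of the 11 cadherins, 9 had a negative log2 fold change. Border macrophage markers, not plotted, stood at 0.355 in lidocaine 1 and were highest in lidocaine 3, at 0.373.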

How the data were processed

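The deposited table gives estimated counts and FPKM per gene and library, per the file headers. These deposited estimated counts carry no normalisation, and 2 of the 10 members have fractional ones. The FPKM values were scaled by the authors for transcript length and depth. Build mm10 is named in the submitters' processing notes, whereas the sources used here do not give the aligner, the counter or the annotation release. Columns were matched to samples by group initial and replicate number. The members and lists were chosen with earlier results of these data known.

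Estimated counts were rounded, filtered with filterByExpr (minimum count 10, 13408 genes left), scaled by TMM and tested two-sided by the robust quasi-likelihood F-test of edgeR 4.0.16 (R 4.3.3), with Benjamini-Hochberg adjustment over all tested genes and calls at an adjusted p under 0.05. Standard errors and 95% intervals were derived from the F statistic. Log2 CPM used a prior count of 2. Every pair of libraries differed by more than sampling noise (9.89 to 17.2 as chi-square per degree of freedom). Alternatives were RLE or no scaling, no filter, DESeq2 1.42.0, limma-voom and log2(FPKM + 1) in limma 3.58.1, a replicate block, and each library left out.

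Besides all members, the 2 genes of smallest p in each of 17 lists were to be named, and some genes are not reported here. Other genes were named after their values were seen. Of 198 list entries, 187 matched 1 row and were not members. Promoter windows came from RefSeq (GRCm38.p6). With 3 libraries per group, an interval covers only the spread between these libraries.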

Additional observations from a re-analysis of the deposited data

How the results depend on the processing

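No member was called under any of the 13 alternatives, and 3 to 5 members had a positive log2 fold change. RLE scaling, no scaling, no filter, DESeq2, limma-voom, log2(FPKM + 1) and the replicate block kept the sign of all 10 members. Leaving out 1 library at a time turned the sign of 3: Dcn ranged from -0.011 to 0.36, Lum from -0.34 to 0.12 and Ptgds from -0.32 to 0.12. Over all genes, DESeq2 called 14 higher and 9 lower, where edgeR called 0 and 2, with 585 genes at an unadjusted p under 0.05. Leaving out 1 library gave 0 to 1 higher and 0 to 6 lower, the 6 without lidocaine 1. The cause was not tested. With the replicate block, 0 genes were called lower. Deviations of same-numbered libraries correlated at 0.045, 0.027 and -0.0014. Control 1 correlated best with lidocaine 1 and control 2 with lidocaine 2, whereas control 3 correlated best with lidocaine 2, at 0.017. Values this near 0, from 3 libraries per group, cannot decide whether same-numbered libraries share more than a number. Counts of 9 to 22 for Postn and of 0 to 29.6 for Fbln2 limit both. On the log2(FPKM + 1) scale, which understates changes of low genes, every member except Ptgds had a value nearer 0. Aldh1a2 stood at 0.34 there, and the more abundant Cemip and Cdh11 at 0.53 and -0.07. Ptgds stood at -0.05, against -0.02 in edgeR.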
